A study of Drosophila melanogaster with 15 samples.

Results

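The genes described here are the well expressed long non-coding RNAs of the Drosophila melanogaster male head. They were chosen by their symbol and their measured mean level: every gene whose FlyBase symbol starts with lncRNA: and whose mean over the 15 libraries was at least 5 CPM (the gene's share of all reads counted on genes in a library, scaled to a common total). Of the 1795 lncRNA genes among 17453 gene identifiers, 21 met this rule, 74 had a mean of at least 1 CPM and 648 had no read in any library. The rule used the mean over all libraries and not the strain, so the levels are given below as a description and differences among strains were tested. Just inside the limit were CR46035 at 5.51 CPM, CR42491 at 5.40 CPM and CR43870 at 5.31 CPM, and just outside it were CR45018 at 4.75 CPM, CR43417 at 4.18 CPM and CR45997 at 4.02 CPM.

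Male heads were taken from naive flies aged 5 days and pooled for each library, and their polyadenylated RNA was sequenced to ask which genes change when CBS (cystathionine beta-synthase) and CSE (cystathionine gamma-lyase), enzymes of the transsulfuration pathway that also make hydrogen sulfide, are deleted. The control was strain 58492 (2 libraries), which carries a Cas9 transgene driven by the Act5C promoter together with mutations of yellow, white and DNAlig4, and which the labels call wild type. The deletion strains were made with CRISPR/Cas9 and share the yellow and white mutations with the control; whether they keep the Cas9 transgene is not given in the sources used here. They were CBS-/-(5) with 2 libraries, CBS-/-(8) with 3, the double deletion strains (1) and (2), which lack both genes, with 3 and 2, and a single CSE-/- strain with 3. No group received a treatment. Libraries are named by strain and replicate number, for example control 1.

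Reads counted on genes ranged from 6850445 to 21144213 per library, so that a count of 0 allows a level of up to 0.142 to 0.438 CPM (3 reads, counting error only). The deleted genes fitted the labels: CBS was at 166 and 167 CPM in the control and at most 2.60 CPM in the strains that lack it, and CSE was at 31.4 and 31.8 CPM in the control and at most 1.64 CPM in the strains that lack it. In CSE-/-, CBS was at 112, 88.3 and 84.3 CPM, below both controls (adjusted p = 0.388, edgeR's quasi-likelihood test). CSE was above both controls in every CBS-/- library. It was at 45.7 and 39.0 CPM in CBS-/-(5) and at 66.4, 56.5 and 53.0 CPM in CBS-/-(8) (adjusted p of 0.948 and 0.328, same test). Markers of photoreceptors and neurons were present in every library, with summed levels of 28667 to 54882 CPM and 92.2 to 345 CPM. Midgut enzymes, which a clean head sample should lack, summed to between 243 and 45608 CPM, and CBS-/-(8) 5 held yolk protein and other female transcripts at 3665 CPM against 85.1 to 161 CPM elsewhere. In 4 of the strains many of these RNAs were high or low in the same library. Of the 21, 18 were higher in control 1 than in control 3, 17 were highest in CBS-/-(8) 2 among the 3 libraries of that strain, 15 were highest in CSE-/- 3, and 16 were lowest in double (1) 3. CR40469 had the reverse order in each. In CBS-/-(5), 11 were higher in library 1 and 10 in library 3, and in double (2), 14 were higher in library 2 and 7 in library 4. The shares of all genes with these orders, in CPM, were not counted.

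Long non-coding RNAs are transcripts that encode no known protein and act, where a role is known, as scaffolds, as decoys for RNA-binding proteins, as hosts of small RNAs or through their transcription alone. In Drosophila males, roX1 and roX2 are assembled with the MSL proteins into the dosage compensation complex, which coats the single X chromosome and raises its transcription. Hsromega is strongly induced by heat shock and gathers hnRNP proteins into nuclear omega speckles, and several of the other loci are known mainly by their position.

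The 21 genes lie on X (6 genes), 3L and 3R (4 each), 2L and 2R (3 each) and the fourth chromosome (1), by the Ensembl annotation of BDGP6. Clear of protein-coding genes were 13, while 5 lie antisense to a protein-coding gene or its introns (roX1 to ec, CR43411 to osp, CR30055 to Sin3A, CR46035 to osa and CR43870 to CG6497) and 3 overlap the span of one on the same strand (noe with blot, CR42862 with CG33229 and CR42491 with RpL22). Their exons covered a median of 1241 bp against 616 bp for all lncRNA genes, and 12 of the 21 consist of a single exon block. A small RNA gene lies within 4 of them on the same strand: mir-8 in CR43650, mir-4951 in Hsromega, mir-9381 in mimi and snoRNA:Psi18S-531 in CR42491. The libraries were made with a directional kit, but of 64 protein-coding genes lying wholly under exons of the opposite strand, 62 had fewer than 15 reads over all libraries, while protein-coding genes clear of other genes had a median of 922 reads. Counts therefore appear to have been made without strand, and reads of a lncRNA lying in the intron of an antisense gene cannot be told apart from unspliced reads of that gene.

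A few of these RNAs made up nearly all long non-coding reads. The 21 genes held 98.9% of the reads on lncRNA genes, and the 2 most abundant of them, CR40469 and noe, held 84.6%. Mean levels fell from 10796 CPM for CR40469 and 4729 CPM for noe through mimi at 1125 CPM, CR42862 at 931 CPM and roX1 at 399 CPM to roX2 at 71.3 CPM, CR31781 at 47.6 CPM, Hsromega at 30.5 CPM and CR43650 at 24.4 CPM, with the remaining 12 between 5.31 and 15.2 CPM. Per kilobase of exon the order changed: CR40469, only 214 bp long, stood at 50450 CPM per kb, while Hsromega, which covers 21710 bp, stood at 1.40 CPM per kb, the lowest of the 21. Together the 21 RNAs took 2.33% and 2.52% of gene reads in the control libraries and between 1.48% and 1.99% in the 13 libraries of the deletion strains. Without CR40469 and noe the share was 0.125% to 0.281% in the control and 0.117% to 0.638% in the others, and these ranges overlapped.

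**Figure D1:**
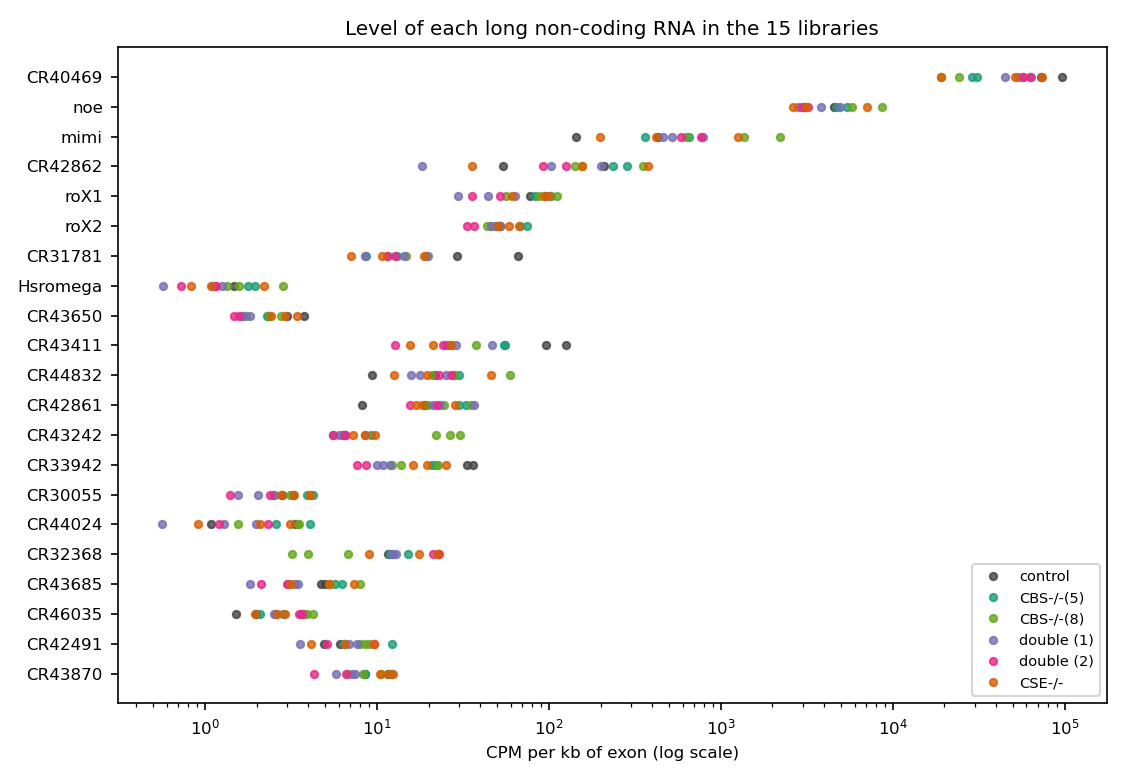
Level of each of the 21 long non-coding RNAs, in CPM per kb of exon on a log scale, with 1 point per library coloured by strain, ordered by mean CPM. CR40469 stands highest and Hsromega lowest per kb, and the control points of CR31781, CR43411 and CR33942 lie to the right of all others.

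The first question was which of these RNAs differed from the control in the deletion strains. CR31781 and CR43411 were lower in all 5 strains, CR43650 and CR33942 were lower in the 4 strains that lack CBS, and CR40469, CR32368 and CR43242 differed in 1 strain each. Genes were called lower or higher where the adjusted p of edgeR's quasi-likelihood test, over all genes tested, was under 0.05. Log2 fold changes and calls use TMM normalization, which rescales library totals, while levels in CPM and statements of libraries above or below others do not. The measures can therefore differ, even in direction. In CBS-/-(5), roX1 averaged 511 CPM against 473 CPM in the control, with a log2 fold change of -0.28. In CBS-/-(5), 5 of the 21 were called lower, against 7.74% of all 9206 genes tested, and 0 higher, against 1.6% (9.34% in either direction). In CBS-/-(8), 5 were called lower, against 4.67%, and 1 higher, against 1.76% (6.44% in either direction). In double (1) and in double (2), 4 were called lower, against 3.03% and 2.36%, and 0 higher, against 1.15% and 1.1% (4.18% and 3.45% in either direction). In CSE-/-, 2 were called lower, against 0.565%, and 0 higher, against 0.213% (0.778% in either direction). At an unadjusted p under 0.05, 1 was higher in CBS-/-(5), 3 in double (1), 2 in double (2) and 0 in CSE-/-, and DESeq2 called 0, 0, 1 and 0 higher in these strains. All 5 comparisons share the control libraries, so they are not independent of one another. Neuronal markers differed from the control as well: of a list of 5, 3 were called lower in CBS-/-(5), CBS-/-(8) and double (2), 2 in double (1) and 0 in CSE-/-, although the summed level of the list in CBS-/-(5), 269 and 295 CPM, was above the control sums of 256 and 175 CPM. Their part in the members' values was not tested.

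The median log2 fold change of the 21 stayed near that of all genes in CBS-/-(5), at 0.04 against 0.03, and in CSE-/-, at -0.12 against 0.01. It was -0.25 against 0.04 in CBS-/-(8), -0.45 against 0.02 in double (1) and -0.52 against 0.00 in double (2). In double (2), 15 of the 21 had a log2 fold change below 0 and 6 had one above 0. Taken by library, 3 of the 21 (CR31781, CR43411 and CR33942) were lower in all 13 deletion libraries than in both controls, a pattern that 3.71% of 9927 genes showed, and 0 were higher in all 13, a pattern of 5.62% of genes.

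**Figure D2:**
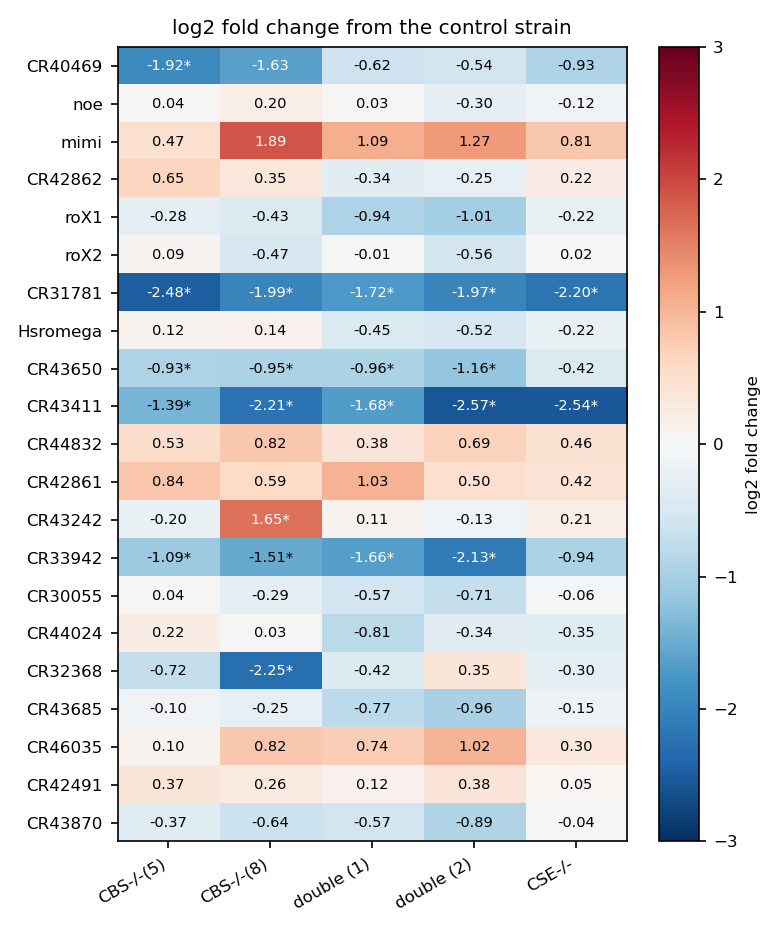
The log2 fold change of each of the 21 RNAs in each deletion strain against the control, with red higher and blue lower and an asterisk where the edgeR adjusted p was under 0.05. CR31781 and CR43411 carry an asterisk in all 5 columns, CR43650 and CR33942 in the 4 columns of strains that lack CBS.

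CR31781 (2L, 16869346 to 16878300, plus strand, 4 exon blocks over 2679 bp) lies 26 bp from CG32832. It stood at 177 and 78.7 CPM in the control, so that the control libraries themselves were far apart. In CBS-/-(5) it was at 35.3 and 23.3 CPM, in CBS-/-(8) at 39.9, 51.5 and 31.1 CPM, in double (1) at 38.4, 53.2 and 22.9 CPM, in double (2) at 34.0 and 30.5 CPM, and in CSE-/- at 28.9, 50.7 and 18.96 CPM. Every deletion library was below both controls, and the 5 deletion strains overlapped one another. The log2 fold change was -2.48 (SE 0.38, edgeR adjusted p = 0.0159) in CBS-/-(5), -1.99 (SE 0.33, adjusted p = 0.00395) in CBS-/-(8), -1.72 (SE 0.35, adjusted p = 0.0394) in double (1), -1.97 (SE 0.34, adjusted p = 0.0416) in double (2) and -2.20 (SE 0.37, adjusted p = 0.0369) in CSE-/-. The call in CBS-/-(8) held with each library left out in turn, with adjusted p up to 0.0281. The others ended without some library: CBS-/-(5) without control 3 (adjusted p = 0.0800) or with no filter on low counts (0.0637), double (1) without control 1 (0.227), double (1) 1 (0.0935) or double (1) 2 (0.0855), double (2) without control 1 (0.0586), and CSE-/- without control 1 (0.210), CSE-/- 1 (0.400) or CSE-/- 3 (0.0739).

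CR43411 (2L, 14613258 to 14613621, plus strand, a single exon of 364 bp) lies antisense within the span of osp, outside its exons, 1931 bp from Adh, which encodes alcohol dehydrogenase. Its level was 45.6 and 35.1 CPM in the control and 20.4 and 20.0 CPM in CBS-/-(5). It was 13.7, 9.41 and 9.87 CPM in CBS-/-(8), 9.14, 17.1 and 10.5 CPM in double (1), 4.65 and 8.81 CPM in double (2), and 9.80, 5.65 and 7.68 CPM in CSE-/-. No deletion library reached the control range. The log2 fold change ran from -1.39 (SE 0.17, edgeR adjusted p = 0.00954) in CBS-/-(5) through -1.68 (SE 0.30, adjusted p = 0.0231) in double (1), -2.21 (SE 0.31, adjusted p = 0.00158) in CBS-/-(8) and -2.54 (SE 0.37, adjusted p = 0.0165) in CSE-/- to -2.57 (SE 0.35, adjusted p = 0.0246) in double (2). With each library left out in turn the call in CBS-/-(8) held, with adjusted p up to 0.0101. The call ended in CBS-/-(5) without control 3 (0.0622) or with all 15 libraries in 1 fit (0.0959), in double (1) without control 1 (0.118), control 3 (0.0644) or double (1) 2 (0.0543), in double (2) without control 1 (0.0913) or control 3 (0.0760), and in CSE-/- without CSE-/- 1 (0.128).

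The neighbours of CR43411 did not follow the same pattern over the strains. The host osp was at 12.6 and 21.7 CPM in the control and was not called in any strain against it, with log2 fold changes of -0.73 to 0.03. Adh, whose annotated span overlaps Adhr so that shared reads stay uncounted, averaged 6.14 ± 1.33 CPM (SD, n = 2) in the control. It was lower in double (1), with a log2 fold change of -1.65 (SE 0.36, edgeR adjusted p = 0.0476), and in double (2), with -2.80 (SE 0.36, adjusted p = 0.0197), while in CBS-/-(5) and CBS-/-(8) its log2 fold changes were 0.07 and 0.51 and in CSE-/- -2.18 (adjusted p = 0.0640).

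CR33942 (2R, 18711391 to 18711951, plus strand, 503 bp of exon) is the only one of the 21 within 200 kb of a deleted gene, 82.0 kb from CSE. It was at 18.4 and 16.8 CPM in the control, at 11.1 and 10.6 CPM in CBS-/-(5), at 6.13, 11.4 and 6.94 CPM in CBS-/-(8), at 5.43, 6.01 and 5.06 CPM in double (1), at 4.32 and 3.83 CPM in double (2) and at 9.87, 8.19 and 12.7 CPM in CSE-/-. All 13 deletion libraries lay below both controls, and all 5 double deletion libraries lay below all 5 CBS-/- libraries. The log2 fold change was -1.09 (SE 0.19, edgeR adjusted p = 0.0230) in CBS-/-(5), -1.51 (SE 0.29, adjusted p = 0.00830) in CBS-/-(8), -1.66 (SE 0.23, adjusted p = 0.00909) in double (1) and -2.13 (SE 0.23, adjusted p = 0.0131) in double (2). In CSE-/- it was -0.94 (SE 0.35) with an adjusted p of 0.563. Set directly against each other, the double deletion and CBS-/- strains differed by -0.50 (SE 0.19, adjusted p = 0.0593). Calls ended in CBS-/-(5) without control 3, CBS-/-(5) 1 or CBS-/-(5) 3 (adjusted p of 0.101, 0.0913 and 0.124), with no filter (0.0529) and with all 15 libraries in 1 fit (0.0594), in CBS-/-(8) without control 3 (0.0929), in double (1) without double (1) 2 (0.0782), and in double (2) without control 1 (0.0567) or control 3 (0.0506).

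CR43650 (2R, 16829095 to 16839494, plus strand, a single exon block of 10400 bp) contains mir-8, a microRNA gene of the miR-200 family with known roles in growth and in the nervous system. The mature microRNA was not measured in these libraries of polyadenylated RNA. CR43650 stood at 39.0 and 31.3 CPM in the control, at 23.9 and 24.4 CPM in CBS-/-(5), at 18.1, 28.8 and 24.4 CPM in CBS-/-(8), at 16.99, 19.1 and 17.2 CPM in double (1), at 16.4 and 15.4 CPM in double (2) and at 25.3, 35.6 and 30.2 CPM in CSE-/-. The 10 libraries without CBS were all below both controls, and only CSE-/- 3 of the 13 deletion libraries reached the control range. Log2 fold changes in the strains without CBS were close to each other, at -0.93 (SE 0.17, edgeR adjusted p = 0.0251) in CBS-/-(5), -0.95 (SE 0.24, adjusted p = 0.0404) in CBS-/-(8), -0.96 (SE 0.21, adjusted p = 0.0471) in double (1) and -1.16 (SE 0.17, adjusted p = 0.0292) in double (2), and the value in CSE-/- was -0.42 (SE 0.25, adjusted p = 0.889). These calls lay near the threshold. They ended with the loss of either control library in CBS-/-(8), double (1) and double (2) (adjusted p of 0.172 and 0.226, 0.260 and 0.167, 0.0826 and 0.0689 without control 1 and control 3), and of control 3 in CBS-/-(5) (0.0800). They also ended without CBS-/-(5) 1 (0.156) or CBS-/-(5) 3 (0.142), CBS-/-(8) 2 (0.0723) or CBS-/-(8) 5 (0.157), double (1) 1 (0.0926) or double (1) 2 (0.206), and double (2) 2 (0.0642), with no filter in CBS-/-(5) (0.0597) and with RLE normalization in double (1) (0.0505).

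**Figure D3:**
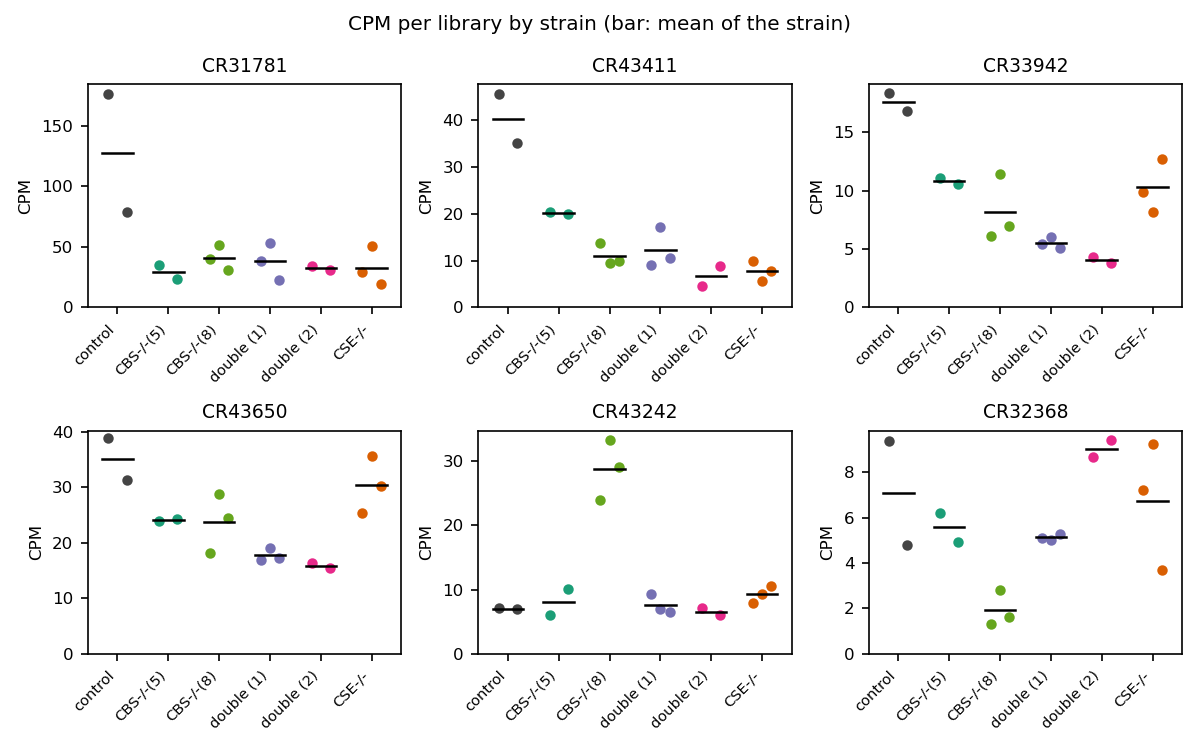
CPM in each library by strain for 6 of the RNAs that differed from the control in at least 1 strain, with the mean of each strain as a bar. Control points stand above all others for CR31781, CR43411 and CR33942, the 3 CBS-/-(8) points stand above all others for CR43242 and below all others for CR32368.

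Whether the CSE-/- strain differed from the strains without CBS was tested directly, in a comparison added after the values had been seen. Of the 21, 0 were called lower, against 0.277% of 9763 genes, and 0 higher, against 0.369%, by edgeR. At an unadjusted p under 0.05, 0 were lower and 3 higher, and DESeq2 called 0 lower and 1 higher. CR43650 was higher in CSE-/- by a log2 value of 0.56 (SE 0.13, edgeR adjusted p = 0.0592) and CR33942 by 0.62 (SE 0.26, adjusted p = 0.441), so a difference of CSE-/- from the other strains was not shown for either.

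The CBS-/-(8) libraries lay outside the range of all 12 other libraries for 3 RNAs, CR43242, CR32368 and CR46035. The share of all genes with this pattern was not counted, so the 3 have no background to be read against. CR43242 (2L, 23069005 to 23070724, plus strand, 1090 bp of exon) was at 23.9, 33.3 and 29.1 CPM in CBS-/-(8) and between 6.02 and 10.6 CPM in the other 12 libraries, which included 7.08 and 6.97 CPM in the control and 6.10 and 10.05 CPM in CBS-/-(5). No library of another strain came near the CBS-/-(8) range. The log2 fold change was 1.65 (SE 0.28, edgeR adjusted p = 0.00452) against the control and 1.89 (SE 0.27, adjusted p = 0.00571) against CBS-/-(5). In the direct comparison of the CBS-/- strains it was the 1 of the 21 called higher, against 3.15% of 9418 genes (3.86% in either direction), while 0 were called lower, against 0.711% (3 at an unadjusted p under 0.05, and 1 by DESeq2). The call against the control held with each library left out, with adjusted p up to 0.0484, and that against CBS-/-(5) ended without CBS-/-(5) 1 (0.0657). Spf45, a splicing factor gene 619 bp away on the opposite strand, had log2 fold changes of 0.57 (adjusted p = 0.330) and 0.03 (adjusted p = 1.00) in the same comparisons.

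CR32368 (3L, 7915437 to 7915846, plus strand, 410 bp) showed the reverse order in the same strain. It was at 1.31, 2.79 and 1.63 CPM in CBS-/-(8), at 9.36 and 4.78 CPM in the control and at 6.21 and 4.91 CPM in CBS-/-(5). In double (1) it was at 5.09, 5.01 and 5.26 CPM, in double (2) at 8.65 and 9.41 CPM and in CSE-/- at 7.22, 9.25 and 3.70 CPM, so the CBS-/-(8) libraries were below all 12 others. Its log2 fold change against the control was -2.25 (SE 0.39, edgeR adjusted p = 0.00514), a call that ended without control 1 (0.0553). Against CBS-/-(5) directly it was -1.48 (SE 0.35, adjusted p = 0.0635), which was not called. CR46035 was at 7.15, 8.02 and 7.38 CPM in CBS-/-(8) and at most 6.94 CPM elsewhere, with log2 fold changes of 0.82 (adjusted p = 0.203) against the control and 0.76 (adjusted p = 0.340) against CBS-/-(5), neither of which was called. Library CBS-/-(8) 5, which held the female transcripts, was neither the highest nor the lowest of its strain for any of the 3 RNAs.

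CR40469 (X, 122493 to 122706, plus strand, a single exon of 214 bp), the most abundant of the 21, was at 15548 and 20672 CPM in the control. It was at 6626 and 6173 CPM in CBS-/-(5), at 12332, 4086 and 5186 CPM in CBS-/-(8), at 9648, 11472 and 13592 CPM in double (1), at 13493 and 12239 CPM in double (2) and at 11085, 4072 and 15721 CPM in CSE-/-. Of the 13 deletion libraries, 12 were below both controls, and the exception was CSE-/- 4. It was called lower in CBS-/-(5), with a log2 fold change of -1.92 (SE 0.25, edgeR adjusted p = 0.0117). In CBS-/-(8) the log2 value was -1.63 (SE 0.55, adjusted p = 0.118), since the libraries of that strain were spread widely. The CBS-/-(5) call ended without control 3 (0.0579) and with all 15 libraries in 1 fit (0.150).

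Midgut transcripts moved with CR40469 in CBS-/-(5): their sum was 688 and 243 CPM there and 8095 and 19431 CPM in the control, and 24 of the 25 midgut markers tested were lower. In CBS-/-(8) 2, 5 and 1 the midgut sum was 14408, 18447 and 38705 CPM and CR40469 stood at 4086, 5186 and 12332 CPM. In CSE-/- 3, 1 and 4 the sum was 3223, 7276 and 14422 CPM beside CR40469 at 4072, 11085 and 15721 CPM, so that the order of the libraries was the same for both in these strains, in the control, in CBS-/-(5) and in double (2). In a strain with 2 libraries, an order can only agree or reverse. In double (1) the library with the highest midgut sum, 22618 CPM, had the lowest CR40469, 9648 CPM. Glial and hemocyte sums had the reverse order of CR40469 in every strain but double (2). In double (1) 1, 2 and 3 the glial sum was 1564, 1227 and 868 CPM beside CR40469 at 9648, 11472 and 13592 CPM. The part of midgut, glial or hemocyte RNA in the CR40469 values was not tested. In bulk RNA, fewer cells of a type and less RNA per cell cannot be told apart.

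The next question was how the roX RNAs and their protein partners stood in these males. roX1 was at 523 and 423 CPM in the control, at 457 and 564 CPM in CBS-/-(5), at 307, 609 and 479 CPM in CBS-/-(8), at 348, 243 and 163 CPM in double (1), at 285 and 195 CPM in double (2) and at 333, 513 and 549 CPM in CSE-/-. All 5 double deletion libraries were below both controls, and the other strains overlapped the control. The log2 fold change against the control was -0.94 (SE 0.26, edgeR adjusted p = 0.0962) in double (1) and -1.01 (SE 0.23, adjusted p = 0.0842) in double (2), neither of which passed the threshold. roX2 was between 45.9 and 102 CPM in all 15 libraries, with 67.5 and 70.9 CPM in the control, and its log2 fold changes against the control lay between -0.56 and 0.09, with adjusted p of at least 0.187.

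Dosage compensation genes were counted from a list of 11, of which 10 matched and all 10 were tested. Against the control, 2 of the 10 were called lower in CBS-/-(5), in CBS-/-(8) and in double (2), against 7.74%, 4.67% and 2.36% of all genes. In these strains 0 were called higher, against 1.6%, 1.76% and 1.1%, although DESeq2 called 1 higher in CBS-/-(5). The lower pair was the same in each: Unr, an RNA-binding protein that acts on msl-2 mRNA and on roX assembly, with log2 fold changes of -1.90, -2.08 and -1.79, and Sxl, the female switch gene of sex determination that blocks msl-2 translation, with -1.41, -1.40 and -1.80. Unr was at 21.4 and 22.7 CPM in the control, and its adjusted p was 0.00938, 0.00127 and 0.0216 in these strains (Sxl 0.0191, 0.0211 and 0.0463). In double (1) and CSE-/-, 0 of the 10 were called in either direction by edgeR, against 4.18% and 0.778% of all genes. At an unadjusted p under 0.05, 2 were lower in each and 2 and 1 higher. DESeq2 called 2 lower in double (1) and 0 in CSE-/-. Median log2 fold changes of the list were 0.45 in CBS-/-(5), 0.33 in CBS-/-(8), -0.13 in double (1), -0.25 in double (2) and 0.12 in CSE-/-.

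Hsromega (3R, 21296127 to 21317836) was low for its length and showed no called change from the control. It was at 32.3 and 24.9 CPM in the control, at 38.6 and 42.5 CPM in CBS-/-(5), at 29.3, 61.9 and 34.2 CPM in CBS-/-(8), at 23.8, 27.3 and 12.4 CPM in double (1), at 25.2 and 15.7 CPM in double (2) and at 23.6, 47.7 and 18.1 CPM in CSE-/-. Its log2 fold changes ran from -0.52 to 0.14, and the control range overlapped that of both double deletion strains. Among 16 heat-inducible protein genes, 0 were called in any strain against the control by edgeR, which tested 9 or 10 of them in a comparison, or by DESeq2, which tested 13 to 15. At an unadjusted p under 0.05, 1 was higher in double (1) and 1 lower in double (2). Of the hnRNP partners of Hsromega, 5 of 6 matched and 0 were called against the control by edgeR, while DESeq2 called 1 higher in CBS-/-(5), 1 lower in double (1) and 1 higher in double (2).

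**Figure D4:**
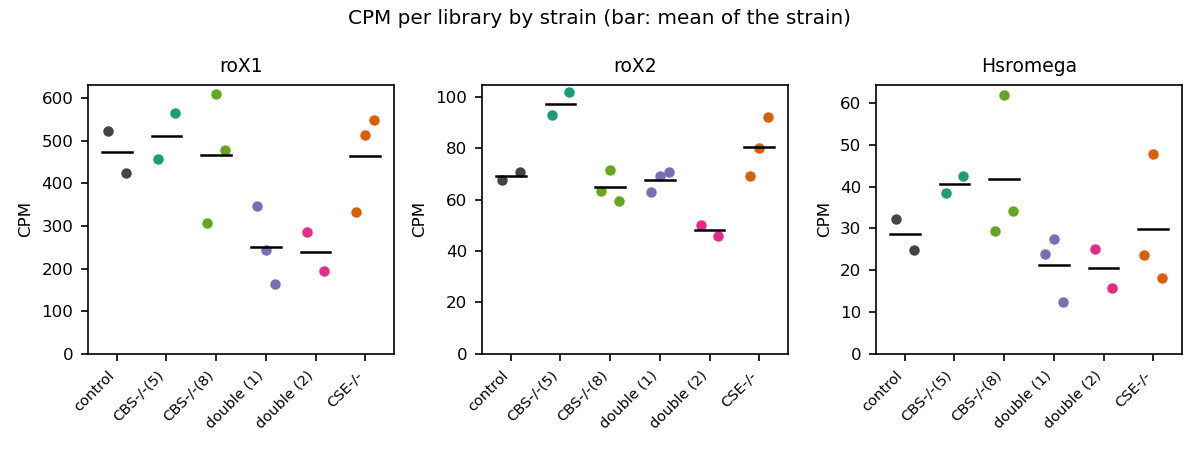
CPM of roX1, roX2 and Hsromega in each library by strain, with the mean of each strain as a bar. For roX1 the 5 double deletion libraries, at 163 to 348 CPM, lie below both controls, with 1 library each of CBS-/-(8) and CSE-/- in the same range at 307 and 333 CPM, and roX2 stays between 45.9 and 102 CPM.

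The double deletion strains were then set against the CBS-/- strains, 5 libraries each, a comparison that uses no control library. Both strains of a genotype were taken as 1 group, so libraries and not strains served as replicates. The p-values therefore do not measure the spread between strains, and a difference cannot be assigned to the CSE deletion. Of the 21, 4 were called lower (roX1, Hsromega, CR43685 and CR43242), against 14.4% of 9230 genes, and 2 higher (CR40469 and CR32368), against 13.3%. The 6 calls are 28.6% of the 21, beside 27.6% of all genes called in either direction, so the share was near the background. Hsromega separated fully in CPM, which TMM does not rescale. Its double deletion libraries ran from 12.4 through a median of 23.8 to 27.3 CPM and its CBS-/- libraries from 29.3 through 38.6 to 61.9 CPM. Its log2 fold change, which TMM does rescale, was smaller than the CPM levels alone would give, at -0.61 (SE 0.19, edgeR adjusted p = 0.0380). Whether the libraries stay apart after rescaling was not examined. CR33942 and CR30055 also separated fully in CPM, and the share of all genes that did so was not counted. For roX1 the double deletion libraries ran from 163 through 243 to 348 CPM and the CBS-/- libraries from 307 through 479 to 609 CPM, with a log2 fold change of -0.60 (SE 0.17, adjusted p = 0.0327) and 4 of the 5 double deletion libraries below all CBS-/- libraries. roX2 had a log2 fold change of 0.02 (SE 0.20, adjusted p = 0.945) in the same comparison.

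Other members called there were CR43685, at -0.65 (SE 0.20, edgeR adjusted p = 0.0380), CR43242 at -1.14 (SE 0.39, adjusted p = 0.0484), CR40469 at 1.15 (SE 0.34, adjusted p = 0.0348) and CR32368 at 1.38 (SE 0.38, adjusted p = 0.0318). CR43685 was at 2.26 to 4.31 CPM in the double deletion and at 3.795 to 9.87 CPM in the CBS-/- libraries, which overlapped. For CR43242 and CR32368 the CBS-/-(8) libraries held the extreme values, given above. All 6 calls ended with the replicate number as a block, with adjusted p of 0.143 to 0.246, and each ended without at least 6 of the 10 libraries, taken one at a time. The single libraries whose loss left the call in place were double (1) 1 and CBS-/-(8) 1 for CR40469 and CR43685, these and double (2) 2 for roX1, these 3 and double (1) 2 for Hsromega, these 3 and CBS-/-(5) 1 for CR32368, and CBS-/-(5) 1 alone for CR43242. Without any other library the call ended, with adjusted p up to 0.0792, 0.0993, 0.0800, 0.0971, 0.0802 and 0.123 in that order. With all 15 libraries in 1 fit the calls of CR40469 (0.0736), roX1 (0.0534), Hsromega (0.0662) and CR43685 (0.0534) ended, with RLE normalization that of CR43242 (0.0531), and with no filter those of CR43242 (0.0616) and CR43685 (0.0587). Leaving out CBS-/-(8) 5, with its female transcripts, gave log2 fold changes of -0.59 for roX1 (adjusted p = 0.0706), -0.65 for Hsromega (0.0663), 1.06 for CR40469 (0.0787) and 1.21 for CR32368 (0.0689). Of the dosage compensation list, 3 of 10 were called lower by edgeR, against 14.4% of all genes, and 0 higher, against 13.3%. By DESeq2, and also at an unadjusted p under 0.05, 4 were lower and 0 higher. The 3 were msl-2, the male-specific subunit of the complex, at -0.71 (SE 0.15, adjusted p = 0.0164), msl-1, its scaffold partner, at -0.76 (SE 0.22, adjusted p = 0.0328), and Su(var)2-HP2, a heterochromatin protein, at -0.80 (SE 0.24, adjusted p = 0.0352). Pep, an hnRNP partner of Hsromega, was lower by -0.40 (SE 0.12, adjusted p = 0.0354).

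Neuronal markers moved with this comparison too: their sum was 92.2 to 147 CPM in the double deletion libraries and 176 to 345 CPM in the CBS-/- libraries, and 2 of the 5 were called lower. Glial markers summed to 868 to 1564 CPM against 1307 to 2452 CPM, with 1 of 5 called lower, and of the hemocyte markers 1 of 3 was called lower. Their part in the roX1 and Hsromega values was not tested.

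Several abundant RNAs varied widely between libraries of the same strain. noe was at 4931 and 3266 CPM in the control and ran from 2851 to 9325 CPM over all libraries, and its log2 fold changes against the control lay between -0.30 and 0.20. mimi was at 677 and 224 CPM in the control and highest in CBS-/-(8), at 977, 3458 and 2132 CPM, with a log2 fold change of 1.89 (SE 0.51, edgeR adjusted p = 0.0511) that did not pass the threshold. Of the 13 deletion libraries, 10 had more mimi than both controls and 0 had less than both. CR42862 ran from 101 CPM in double (1) 3 to 2065 CPM in CSE-/- 3, with 1153 and 296 CPM in the control, and was not called in any comparison.

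CBS-/-(8) 2 and CSE-/- 3, in which several of these RNAs stood high, were also high for markers of several cell types, neurons among them. In CBS-/-(8) 2, noe was at 9325 CPM, mimi at 3458 CPM, Hsromega at 61.9 CPM and CR44832 at 34.9 CPM, each the highest of the 15 libraries, and the neuronal marker sum was at its highest, 345 CPM. In CSE-/- 3 noe was at 7588 CPM, CR42862 at 2065 CPM and the marker sum at 278 CPM, against 122 to 158 CPM for that sum in the other CSE-/- libraries. Control 3, with a marker sum of 175 CPM against 256 CPM in control 1, had the lowest level of mimi, CR44832 and CR42861 among all libraries (224, 5.47 and 4.51 CPM). Its marker sum was nevertheless the median of the 15 libraries. The double deletion libraries had lower marker sums, 92.2 to 147 CPM, and more of all 3 RNAs, with mimi at 721 to 1233 CPM. CBS-/-(8) 2 and CSE-/- 3 also had the highest summed levels of photoreceptor markers, 54185 and 54882 CPM, and of fat body markers, 3499 and 3746 CPM, and the highest glial sums, 2452 and 2574 CPM, so the pattern was not particular to neurons. The part of any of these cell types in the levels was not tested.

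**Figure D5:**
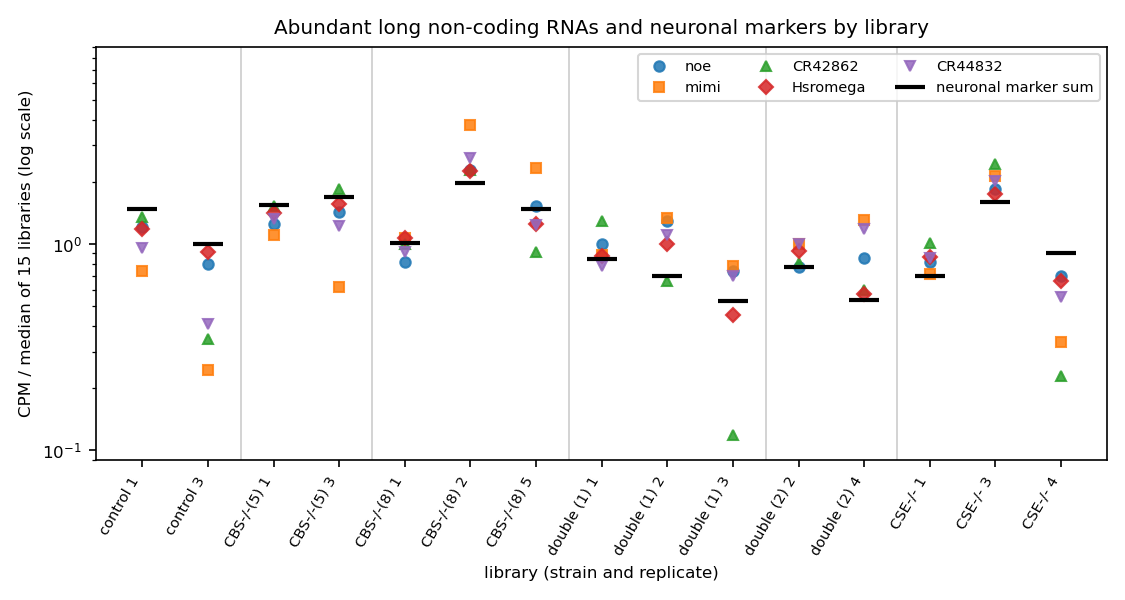
Level of 5 long non-coding RNAs and the summed level of 5 neuronal markers in each library, as CPM divided by the median of the 15 libraries on a log scale. CBS-/-(8) 2 and CSE-/- 3 stand above the other libraries of their strains for all 5 RNAs and for the marker sum.

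CR42862 (3L, 224106 to 230964, plus strand) lies 7 bp from CG42846, a protein-coding gene of the opposite strand with a different order of strains. CG42846 ranged from 41.4 to 62.7 CPM in the control and from 25.6 to 42.5 CPM in the CSE-/- libraries, but from 10.2 to 14.4 CPM for CBS-/-(5), 5.99 to 12.5 CPM for CBS-/-(8), 4.17 to 6.12 CPM for double (1) and 3.86 to 5.77 CPM for double (2). Its log2 fold changes of -2.50, -2.83, -3.38 and -3.46 in these 4 strains were all called (edgeR adjusted p of 0.0119, 0.000420, 0.00128 and 0.0138), and CSE-/- was 2.20 higher than the 4 strains (SE 0.26, adjusted p = 0.00293). The log2 fold changes of CR42862 itself in the 4 strains were 0.65, 0.35, -0.34 and -0.25. CG42846 was chosen after its values were seen.

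The neighbour of each RNA, the protein-coding gene that overlaps it or, failing that, lies nearest, was examined in the same comparisons. In the 28 pairs of an RNA and a comparison in which it was called, 19 such neighbours could be tested, of which 2 were called the same way (Spf45 with CR43242 and Tmem43 with CR32368, both in double against CBS-/-, where 27.6% of all genes were called) and 0 the opposite way. In a wider set of overlapping and nearby genes, chosen after the values were seen, 67 neighbour tests gave 9 calls the same way and 3 the opposite way. These shares were not tested against the background of each comparison.

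The strains of 1 genotype were also set against each other. CBS-/-(8) against CBS-/-(5) is given above for CR43242 and CR32368, and roX2 was lower in CBS-/-(8), at 59.5 to 71.4 CPM, than in CBS-/-(5), at 92.9 and 102 CPM, without overlap and without being called (log2 fold change -0.52, SE 0.20, edgeR adjusted p = 0.390). It also did not overlap between double (2), at 45.9 and 50.4 CPM, and double (1), at 63.1 to 70.8 CPM (log2 fold change -0.54, SE 0.23, adjusted p = 0.878). Double (2) and double (1) gave 0 calls by edgeR in either direction, against 0.135% lower and 0.218% higher of 9630 genes, with 1 lower and 1 higher at an unadjusted p under 0.05 and 0 by DESeq2. Over all 6 strains in a single test, 7 of the 21 showed a difference (CR43242, CR31781, CR32368, CR33942, CR43411, CR43650 and CR46035), against 11.6% of 9927 genes. CR46035, which lies in osa on the opposite strand, had 3.72 and 2.87 CPM in the control and between 3.70 and 8.02 CPM in the deletion libraries, 12 of which were above both controls, with an adjusted p of 0.0377 over the 6 strains and of at least 0.130 against the control in any 1 strain. Its call over the 6 strains held under only 6 of 19 alternative settings, with adjusted p from 0.0151 to 0.188, whereas each of the other 6 RNAs was called under 18 or 19 of them.

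The other RNAs, CR44832, CR42861, CR30055, CR44024, CR42491 and CR43870, were called in no comparison. CR42861, 101 bp from Pdcd4 on X, was at 10.4 and 4.51 CPM in the control and above both in 10 of the 13 deletion libraries, with log2 fold changes of 0.42 to 1.03 and adjusted p of at least 0.156. CR30055, within Sin3A, was lower in all 5 double deletion libraries (2.89 to 5.17 CPM) than in all 5 CBS-/- libraries (5.21 to 8.74 CPM) without being called (log2 fold change -0.48, edgeR adjusted p = 0.0602). CR44024 ran from 1.504 CPM in double (1) 3 to 10.9 CPM in CBS-/-(5) 1, CR42491 from 2.67 to 9.15 CPM and CR43870 from 2.62 to 7.45 CPM.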

How the data were processed

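According to the paper's methods and the submitters' processing notes, the authors trimmed reads with Trimmomatic, aligned them to dm6 with STAR within PPLine and counted them with featureCounts. The sources used here give no versions, no annotation release and no strand setting. The deposited values are raw counts per gene, 1 table per library, without normalization, and the depth per library is given in the report. Lines that name no gene were left out: unassigned reads outside genes were 1.50% to 3.89% and ambiguous reads 2.70% to 4.38% of assigned and unassigned reads together, so RNAs that share exons with another gene are undercounted. Symbols came from a table of gene identifiers (17178 of 17453 matched), and positions from Ensembl release 115 of BDGP6 (patch 54).

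Each comparison was fitted over all genes with edgeR 4.0.16 in R 4.3.3 (TMM normalization, filterByExpr, quasi-likelihood F test, Benjamini-Hochberg adjustment), with the test the study's methods name, on the libraries it concerns. A standard error is the size of the log2 value over the root of the F statistic. All 21 RNAs passed the filter in every comparison. Alternatives were RLE normalization, DESeq2 1.42.0, no filter, all 15 libraries in 1 fit, the replicate number as a block, each library left out, and a limit of 10 CPM. The fit was tested on simulated counts. Named genes were the non-CR symbols, the 8 most abundant, the strongest called in each comparison, the 10 with the smallest p over the strains, those near CBS or CSE or holding small RNAs, and those at the limit. The members and lists were chosen with earlier results of these data known. The labels call the libraries of a strain biological replicates made from separate pools of heads, so p-values measure the spread between the pools that have a library here. The paper states 3 biological replicates for each strain, while the control, CBS-/-(5) and double (2) have 2 libraries here, and replicate numbers skip values. Whether libraries were left out, and why, is not given in the sources used here. Where strains were joined into 1 group, libraries of different strains counted as replicates. The libraries were grouped by their labels alone.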

Additional observations from a re-analysis of the deposited data

Results flagged for a closer look

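CR44832 reached 34.9 CPM in CBS-/-(8) 2, far from the other 4 libraries of the CBS-/- strains, which lay between 12.3 and 17.6 CPM. Among 42 groups of 5 libraries examined in this way 1 stood out, and chance would mark about 1 in 20.

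The strains CBS-/-(5) and CBS-/-(8), which carry a deletion of the same gene, differed in CR43242 by a log2 value of 1.89 (edgeR adjusted p = 0.00571), higher in all 3 CBS-/-(8) libraries than in both CBS-/-(5) libraries.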

How the results depend on the processing

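Direction never turned among the 28 called values. Under settings other than leaving out a library, 114 of 134 values kept their call and 20 lost it, and with a library left out 78 of 161 kept it and 83 lost it. Counts of RNAs called lower in CBS-/-(5) fell from 5 to 2 with no filter and to 2 with all 15 libraries in 1 fit, and ranged from 0 to 5 with a library left out (higher, 0 to 3). In CBS-/-(8), DESeq2 and no filter each gave 2 higher in place of 1, and leaving out libraries gave 3 to 6 lower and 1 to 2 higher. In double (1) the lower count ranged from 0 to 4, in CSE-/- from 0 to 2, and in double (2) from 0 to 4, where DESeq2, no filter and all 15 libraries in 1 fit each gave 1 higher (0 to 1 with a library left out). Double against CBS-/- gave 2 lower with no filter, 1 lower and 1 higher with all 15 libraries in 1 fit, 0 lower and 0 higher with the replicate block, and 0 to 4 lower and 0 to 2 higher with a library left out. CBS-/-(8) against CBS-/-(5) gave 1 lower with RLE, with DESeq2 and with all 15 libraries, 2 higher with DESeq2, and 0 to 3 lower and 0 to 2 higher with a library left out. CSE-/- against the strains without CBS gave 1 higher with DESeq2 and with all 15 libraries, and 0 to 1 with a library left out. Differences over the 6 strains fell from 7 to 3 with the replicate block. The lowest counts of lower calls came without control 3 for CBS-/-(5), either control for CBS-/-(8), double (1) 2 for double (1), control 1 for double (2), CSE-/- 1 for CSE-/-, and double (1) 3, double (2) 4, CBS-/-(5) 3, CBS-/-(8) 2 or CBS-/-(8) 5 for double against CBS-/-. A limit of 10 CPM kept 13 of the 21 RNAs.

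Same-numbered libraries showed no steady pairing: their deviations correlated at -0.551 to 0.362 in the comparisons with the control and at -0.285 to 0.0341 in double against CBS-/-. In a strain with 2 libraries the deviations mirror each other, so these values are not separate evidence. They cannot decide whether same-numbered libraries shared a batch. The crossed replicate block, added after seeing the data, gave 5 lower and 2 higher in CBS-/-(5). With 2 control libraries, which differed in 18 of 21 RNAs in the same direction, a single library often decided a call. RNAs near 5 CPM rest on as few as 9 reads in a library.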

Other observations

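Antimicrobial peptide genes, effectors of the humoral immune response, had a median log2 fold change against the control of 2.63 in CBS-/-(5), 2.47 in CBS-/-(8) and 2.11 in double (2), and of -1.03 in double (1) and -0.69 in CSE-/-. Of the 14 genes listed, 13 matched an identifier. These medians are over the 8, 12, 10, 8 and 8 genes that passed the count filter, so the sets differ. A gene near 0 in the control, or in 1 of 2 deletion strains compared, could pass through a high level in the other group. The counts of calls below may include such genes, so they do not test the list against the shares of all genes beside them. By call, 8 of the 12 tested were called higher in CBS-/-(8) by edgeR's quasi-likelihood test, against 1.76% of all genes. In CBS-/-(5) 0 of 8 were, against 1.6% of all genes, while 6 were higher at an unadjusted p under 0.05 and DESeq2 called 1. Lower calls by edgeR were 1 of 8 each in CBS-/-(5), double (1) and CSE-/-, against 7.74%, 3.03% and 0.565% of all genes. In double (1) and CSE-/- 0 were called higher, against 1.15% and 0.213%. In double (2), 3 of 10 were called higher and 1 lower, against 1.1% and 2.36%. In CBS-/-(8) 0 were called lower, against 4.67%. In CBS-/-(8) against CBS-/-(5) directly, 1 of 12 was called higher, against 3.15% of all genes, and the median was -0.02. Between the double deletion strains, 7 of 10 were called higher in double (2) than in double (1), against 0.218% of all genes.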
